A study of Mus musculus with 7 samples.

Results

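The 8 genes described here encode creatine kinases, proteins that import or make creatine, and an adenylate kinase that transfers phosphate beside them, and were chosen by gene name: Ckm, Ckmt2, Ckb, Ckmt1, Slc6a8, Gatm, Gamt and Ak1. They were read by 12 probes of 60 bases, among 56605 non-control probes carrying 37074 gene names. All 12 probes passed the filter on dim probes, which required a signal well above background on at least 3 arrays, and 11 of them were well above background on all 7 arrays. The 4 knockout samples (Mutant_175, Mutant_182, Mutant_187, Mutant_188) are hearts of adult female mice labelled as carrying the transgene, treated with tamoxifen, and as lacking Brg1 and Brm. The 3 wild type samples (Wild Type_181, Wild Type_183, Wild Type_189) are hearts of adult female mice without the transgene, also treated with tamoxifen. SWI/SNF complexes, which slide and evict nucleosomes, run on 1 of 2 ATPases, Brg1 (encoded by Smarca4) or Brm (encoded by Smarca2). In the knockout animals Brm was absent from the start and Brg1 was removed in adult cardiomyocytes by a tamoxifen-dependent Cre under a myosin heavy chain promoter, so other cell types of these hearts are not targeted by that Cre. Whether wild type animals carried Brm is not stated in the labels, and effects of Cre and of losing Brg1 and Brm cannot be told apart. The samples are labelled as cardiomyocytes, with heart as their source and a tissue RNA kit as the extraction.

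In cardiomyocytes, creatine kinase moves phosphate between ATP and creatine, and phosphocreatine is their high-energy phosphate store. A mitochondrial isoform charges creatine where ATP is made, and cytosolic isoforms recharge ATP at the myofilaments and ion pumps. Striated muscle uses the muscle cytosolic isoform (Ckm) and the sarcomeric mitochondrial isoform (Ckmt2), whereas brain and many other tissues use the brain cytosolic isoform (Ckb) and the ubiquitous mitochondrial isoform (Ckmt1). Heart muscle imports most of its creatine through the transporter Slc6a8. Gatm and Gamt catalyse the consecutive steps of creatine synthesis, mainly in kidney and liver, and Ak1, a cytosolic adenylate kinase, runs a parallel phosphate transfer between adenine nucleotides.

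The probe sequences below are shown because the muscle and brain isoforms are close relatives, and the array tells them apart only through these bases. The Ckm probe and the upstream Ckb probe come from matching stretches of the 2 transcripts. Without gaps they matched at 45 of 56 aligned bases (80.4%), with a longest shared run of 8 bases, and capitals mark the matching bases. The Ckm probe and the downstream Ckb probe matched at 23 of 58. Leaving out pairs of a Ckm with a Ckb probe, 63 pairs of the 12 probes had at least 40 aligned bases. The closest of them matched at 26 of 53 (49.1%). Whether Ckb transcript binds the Ckm probe, or the reverse, was not tested.
Ckm: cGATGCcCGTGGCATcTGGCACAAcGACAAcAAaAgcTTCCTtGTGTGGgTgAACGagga
Ckb, upstream probe: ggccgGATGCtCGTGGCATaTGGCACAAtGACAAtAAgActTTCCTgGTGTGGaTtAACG
Ckb, downstream probe: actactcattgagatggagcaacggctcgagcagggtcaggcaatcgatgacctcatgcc
Ckmt2: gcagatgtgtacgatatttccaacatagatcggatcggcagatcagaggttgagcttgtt
Slc6a8, upstream probe: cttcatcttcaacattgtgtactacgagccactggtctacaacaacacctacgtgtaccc

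Positions are those of the array's own annotation, on mouse build mm9. The Ckm probe covered chr7:20002222-20004829 on the plus strand, the Ckmt2 probe chr13:91993242-91995390 on the minus strand and the upstream Ckb probe chr12:112908459-112909105 on the minus strand. These 3 spans of 2608, 2149 and 647 bases are longer than the probe, so the annotation places each of these probes across an intron. The downstream Ckb probe lay at chr12:112907787-112907846. The Slc6a8 probes lay at chrX:70925849-70925908 and chrX:70927775-70927834, starting at positions 2272 and 3914 of the transcript. The Ckmt1 probes, which overlap at their ends, lay at chr2:121189359-121189418 and chr2:121189414-121189473. The Gatm probes lay at chr2:122423164-122423223 and chr2:122420814-122420873, the Gamt probe at chr10:79720991-79721047 and the Ak1 probe at chr2:32490509-32490568.

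Levels are given as the processed signal divided by the array's own 75th percentile, so that a level of 1 is the 75th percentile. A difference is the knockout mean less the wild type mean in log2 units from limma, fitted to all 7 arrays, with the p-value adjusted over 22971 genes and called under 0.05. Per array, 58.1% to 63.6% of spots that are not controls passed the scanner software's test against background, and 0 were saturated. The targeted gene Smarca4 was lower in knockout, at 9.83 ± 3.85 against 33.9 ± 0.996 in wild type (SD, n = 4 and 3, log2 difference -1.87, limma adjusted p = 0.0021). Smarca2 read 2.03 ± 0.13 in knockout and 1.92 ± 0.11 in wild type (log2 difference 0.080, limma adjusted p = 0.59), with 0.65 and an adjusted p of 0.029 under spike-in scaling (limma), and whether its probe lies in the deleted part is not known. Over all genes 25.8% were called lower and 16.3% higher, and 51.2% had knockout and wild type arrays that did not overlap. Scaling to 7 spike-in probes instead added 0.57 to the log2 difference of the genes described here and moved the median of all genes to 0.44, against -0.12. It turned the share of calls that were higher to 83.3%, against 38.7%. Each direction below is set against that percentile. Of all genes, spike-in scaling called 7.44% lower and 37.2% higher. All arrays shared 1 slide and 1 scan, but knockout arrays filled row 2 of the slide and wild type arrays row 1, so slide row and genotype cannot be told apart. The labels do not say that samples came from different animals, so p-values reflect only the spread among these samples, whose small number limits precision.

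Of the 8 genes, 4 fell in knockout hearts, 0 rose and 4 did not pass the test. The genes that fell were the muscle isoforms of creatine kinase, Ckm and Ckmt2, the creatine transporter Slc6a8 and the adenylate kinase Ak1. Over all genes 42.1% were called in either direction and 25.8% lower. All 4 fell by more than 2-fold, where 9.99% of all genes did so and were called, but with spike-in scaling the log2 difference of Ak1 was -0.85, which is less than 2-fold. The median log2 difference of the 8 was -0.83, beside -0.12 for all genes tested. The groups of arrays did not overlap for 5 of the 8, beside 51.2% of all genes. All 4 falls were called under each of 20 alternative settings, spike-in scaling included.

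**Figure D1:**
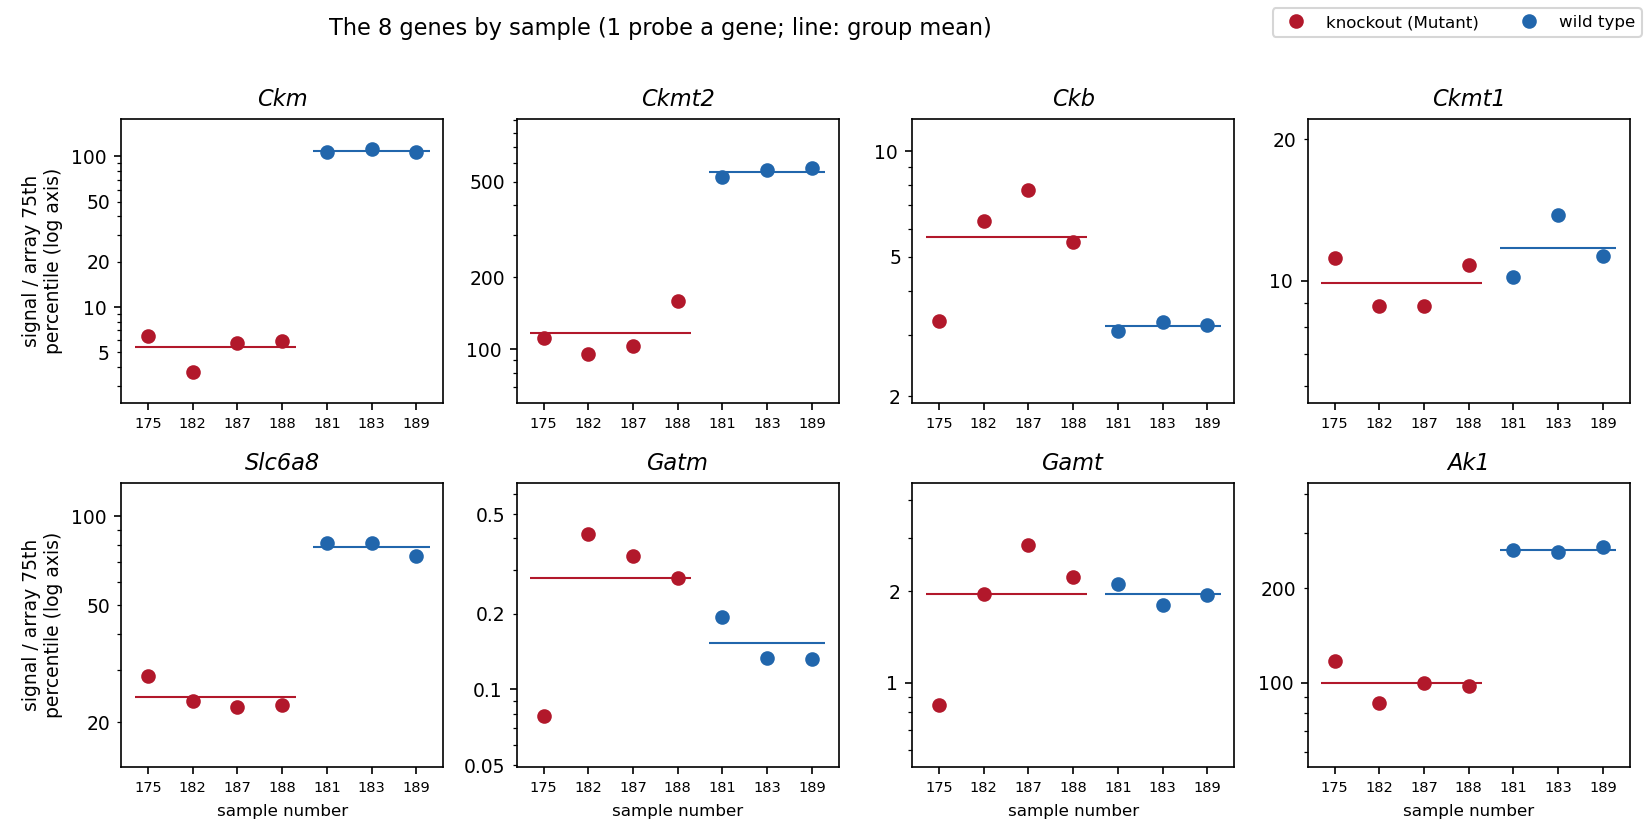
Signal divided by the array's 75th percentile for each of the 8 genes, on log axes whose ranges differ between panels, with knockout samples in red at the left, wild type samples in blue at the right and a line at each group mean. The groups are far apart for Ckm, Ckmt2, Slc6a8 and Ak1, and Mutant_175 lies apart from the other knockouts for Ckb, Gatm and Gamt.

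Ckm, which recharges ATP at the myofilaments, fell the most of the 8. It read 6.39, 3.72, 5.73 and 5.98 in Mutant_175, Mutant_182, Mutant_187 and Mutant_188, against 107.2, 110.9 and 107.2 in the wild types Wild Type_181, Wild Type_183 and Wild Type_189. Every knockout array lay far below every wild type array, and the wild type arrays were nearly equal. The log2 difference was -4.34 (SE 0.20, limma adjusted p = 1.7e-05), a 20.3-fold lower signal. Counting Ckm, 46 of 22971 genes, or 0.200%, had a fitted difference as low or lower. The lowest knockout value was that of Mutant_182.

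Ckmt2, the sarcomeric mitochondrial isoform that charges creatine at the inner membrane, also fell. It read 111.8, 96.1, 103.0 and 159.4 in Mutant_175, Mutant_182, Mutant_187 and Mutant_188, against 522.1, 558.5 and 571.4 in the wild types Wild Type_181, Wild Type_183 and Wild Type_189. The groups did not overlap, and Mutant_188 was the highest of the knockouts. The log2 difference was -2.26 (SE 0.18, limma adjusted p = 0.00014), or 4.78-fold lower.

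Ckb, the brain-type cytosolic isoform, moved the other way on its downstream probe but did not pass the test. That probe read 3.27, 6.302, 7.73 and 5.52 in Mutant_175, Mutant_182, Mutant_187 and Mutant_188, against 3.07, 3.26 and 3.19 in the wild types Wild Type_181, Wild Type_183 and Wild Type_189. Mutant_175 lay just above the wild type range and the other 3 knockouts well above it. The log2 difference was 0.78 (SE 0.27, 95% interval 0.14 to 1.42), with a limma adjusted p of 0.053. Without Mutant_175 it was 1.03 (limma adjusted p = 0.0018), and spike-in scaling gave 1.35 (limma adjusted p = 0.0095). With the mean over its probes it was 0.38 (limma adjusted p = 0.26), the lowest of the 20 alternative settings. Of these 20, it was called in 10. The upstream Ckb probe, the relative of the Ckm probe printed above, read 2.21, 3.77, 4.37 and 3.74 in the 4 knockouts in the same order, against 3.26, 3.58 and 3.53 in the wild types. Its groups overlapped, and its log2 difference was -0.015 (95% interval -0.55 to 0.52, limma adjusted p = 0.97 over probes), or 0.55 with spike-in scaling. Within each array, the downstream probe shifted against the upstream one by 0.79 on the log2 scale, in the same direction in 4 of 4 knockouts. That comparison of probe pairs was chosen after the data were seen, and its exact two-sided permutation p of 0.029 is the smallest that 35 splits can give (0.057 adjusted over the 4 genes with 2 probes).

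Ckmt1, the ubiquitous mitochondrial isoform, did not pass the test on either probe. The brighter probe read 11.2, 8.84, 8.84 and 10.8 in Mutant_175, Mutant_182, Mutant_187 and Mutant_188, against 10.2, 13.8 and 11.3 in the wild types Wild Type_181, Wild Type_183 and Wild Type_189. The groups overlapped. The log2 difference was -0.24 (SE 0.16, 95% interval -0.61 to 0.12, limma adjusted p = 0.24), and it turned to 0.32 with spike-in scaling. The neighbouring probe, which starts at position 1474 of the transcript where the brighter starts at 1529, was far dimmer. Its processed signal was 69.7, 58.9, 193.9 and 60.0 in the 4 knockouts in that order, against 34.3, 31.2 and 34.1 in the wild types. The groups did not overlap there and Mutant_187 was the highest, with a log2 difference of 0.76 (SE 0.36, limma adjusted p = 0.13 over probes). The probes of Ckmt1 thus differed in the sign of their fitted difference, and neither was called. With spike-in scaling the dim probe was called higher, at 1.33 (limma adjusted p = 0.017 over probes).

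Differences between genes within an array are left as they are by any scaling that adds 1 constant to an array's log2 values, and 6 such differences were compared between the groups. Quantile normalization, which is not of that kind, moved them, for example to 1.75 for Ckmt1 less Ckmt2 and -2.33 for Ckm less Ckmt2, and turned none. Ckb was read here by its downstream probe alone, whose rise was not called and was not seen on the upstream probe. The difference between Ckb and Ckm shifted by 5.12 on the log2 scale, or 34.8-fold, towards Ckb in knockout hearts. Relative to the wild type mean it was 4.13, 5.86, 5.53 and 4.98 in Mutant_175, Mutant_182, Mutant_187 and Mutant_188, against -0.030, 0.0057 and 0.024 in the wild types. The difference between Ckmt1 and Ckmt2 shifted by 2.01 towards Ckmt1, and that between Ckb and Ckmt2 by 3.04 towards Ckb. The cytosolic muscle isoform fell by more than the mitochondrial one, since Ckm less Ckmt2 shifted by -2.09. Slc6a8 and Ak1 fell by less than Ckm, with shifts of 2.65 and 2.92. For each of the 6 the groups did not overlap, and the exact two-sided permutation p was 0.029, the smallest that 35 splits can give. Adjustment over the 6 left it at 0.029, as it must where all share 1 value. The genes of each pair already differed in their own fits to the same arrays, so these p-values are no separate support. A shift of this kind shows unequal change and does not say which of the genes changed.

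**Figure D2:**
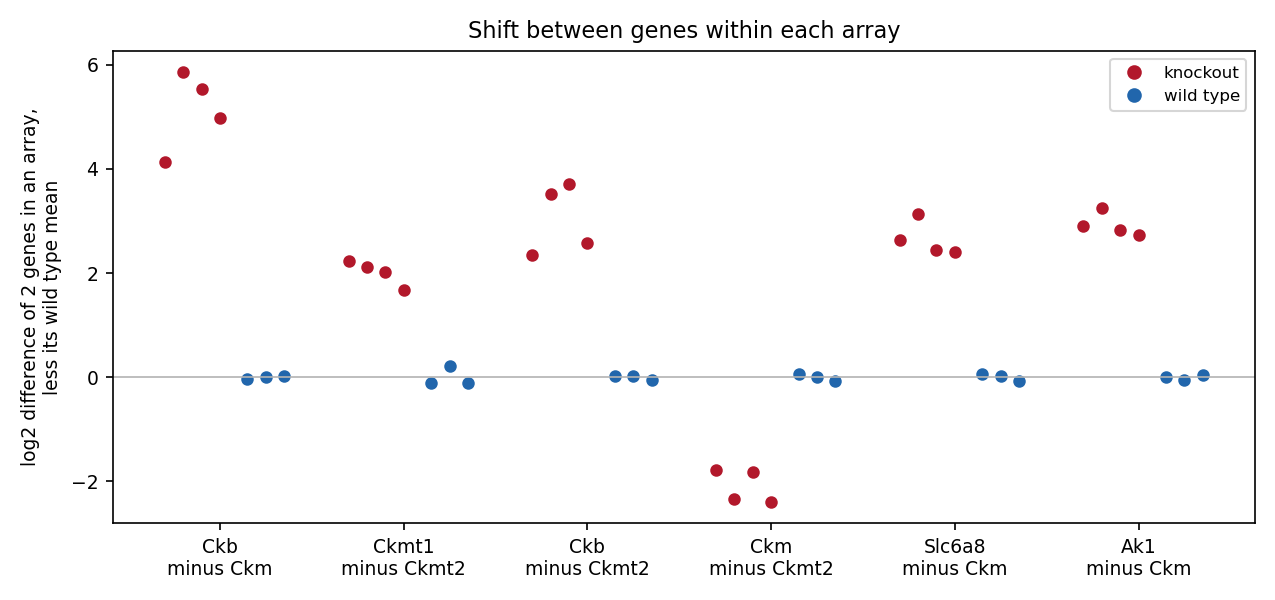
Log2 difference between 2 genes in each array, less its wild type mean, for the 6 pairs named on the x axis, with knockout arrays in red at the left of each pair and wild type arrays in blue at the right. Ckb is read by its downstream probe. All wild type arrays lie near 0, while the knockout arrays lie between 4.13 and 5.86 for Ckb minus Ckm and below 0 for Ckm minus Ckmt2.

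Slc6a8, which carries creatine into the cell together with sodium and chloride, fell on both probes. Its brighter probe, near the end of the transcript, read 28.7, 23.7, 22.6 and 22.9 in Mutant_175, Mutant_182, Mutant_187 and Mutant_188, against 81.1, 81.1 and 73.3 in the wild types Wild Type_181, Wild Type_183 and Wild Type_189. The knockouts lay close together and far below the wild types. The log2 difference was -1.69 (SE 0.13, limma adjusted p = 9.3e-05), or 3.22-fold lower. The upstream probe, printed above, read 1.87, 1.57, 2.35 and 1.79 in the 4 knockouts in that order, against 4.23, 4.00 and 3.85 in the wild types. Its log2 difference was -1.10 (SE 0.15, limma adjusted p = 0.0014 over probes), again with no overlap, and -0.54 with spike-in scaling (limma adjusted p = 0.074 over probes).

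The enzymes of creatine synthesis did not pass the test, and their spread among the knockouts was the widest of the 8. Gatm, which joins arginine and glycine to guanidinoacetate, was dim, with 0.079, 0.416, 0.341 and 0.277 in Mutant_175, Mutant_182, Mutant_187 and Mutant_188, against 0.195, 0.134 and 0.133 in the wild types Wild Type_181, Wild Type_183 and Wild Type_189. Mutant_175 lay below all wild types and the other 3 knockouts above them. The log2 difference was 0.64 (95% interval -0.64 to 1.92, limma adjusted p = 0.38), and 1.17 without Mutant_175 (limma adjusted p = 0.0051). Over the 20 alternative settings it ran from 0.37 to 1.21 and was called in 3. The other Gatm probe gave 0.90 (limma adjusted p = 0.26 over probes) on a signal that cleared background in 3 of 4 knockouts, and 1.44 without Mutant_175 (limma adjusted p = 0.0085 over probes). Gamt, which methylates guanidinoacetate to creatine, read 0.848, 1.95, 2.83 and 2.22 in the 4 knockouts in that order, against 2.11, 1.80 and 1.95 in the wild types. Mutant_175 was again the lowest, Mutant_187 the highest and the groups overlapped, with a log2 difference of -0.12 (95% interval -1.01 to 0.77, limma adjusted p = 0.83). It was 0.24 without Mutant_175 and 0.45 with spike-in scaling, not called in either.

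Ak1, which converts ADP into ATP and AMP in the cytosol, fell. It read 117.6, 86.2, 99.5 and 97.2 in Mutant_175, Mutant_182, Mutant_187 and Mutant_188, against 265.0, 261.9 and 271.3 in the wild types Wild Type_181, Wild Type_183 and Wild Type_189. The groups were well apart, with a log2 difference of -1.42 (SE 0.13, limma adjusted p = 0.00021), or 2.67-fold lower, and -0.85 with spike-in scaling (limma adjusted p = 0.0063). Counted by probe, 5 of 12 were called lower and 0 higher, beside 24.0% and 16.5% of all kept probes, and the groups did not overlap for 7 of 12, beside 49.7%.

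**Figure D3:**
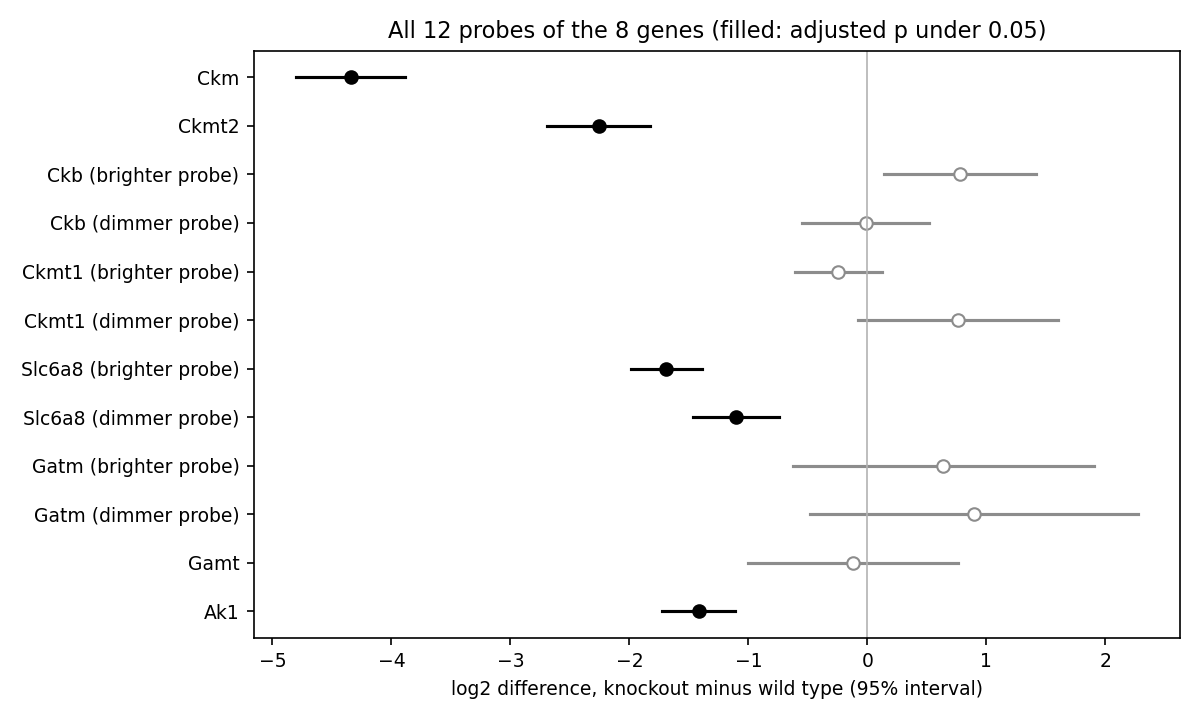
Fitted log2 difference, knockout minus wild type, for each of the 12 probes with its 95% interval, filled where the adjusted p over all kept probes was under 0.05. The probes of Ckm, Ckmt2, Slc6a8 and Ak1 lie left of 0, from -4.34 to -1.10, while the paired probes of Ckb and of Ckmt1 differ from each other.

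The 8 genes differed in how widely they varied among knockouts. The SD of the log2 level over the 4 knockout arrays was 0.16 for Slc6a8, 0.18 for Ak1 and for Ckmt1, 0.32 for Ckmt2, 0.35 for Ckm, 0.53 for Ckb, 0.76 for Gamt and 1.08 for Gatm. Over the wild type arrays it was 0.028 for Ckm, 0.026 for Ak1 and at most 0.32, for Gatm. Mutant_175 had Ckb at 0.044, Gatm at -0.94 and Gamt at -1.20 on the log2 scale relative to the wild type mean. Its Ckm stood at -4.08, the least low of the 4, beside -4.18, -4.24 and -4.87 in Mutant_188, Mutant_187 and Mutant_182. Ckb, Gatm and Gamt were each lowest in Mutant_175.

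Markers of several heart cell types differed between knockout and wild type, and their values are given beside those of the 8 genes. Whether the 8 genes move with the markers was not tested. Cardiomyocyte markers were well above background on all arrays, and 7 of 9 were called lower and 0 higher. Their summed level was 2642 to 3498 in knockout and 5129 to 5560 in wild type, and with spike-in scaling 3 were lower. Tnni3, cardiac troponin I, differed by -2.21 (limma adjusted p = 8.2e-05) and Actc1, cardiac actin, by -0.35 (limma adjusted p = 0.053), beside the -4.34 of Ckm. The value of Actc1 turned to 0.21 with spike-in scaling and 0.25 with quantile normalization, and was called in neither. Fewer cardiomyocytes and less RNA per cardiomyocyte cannot be told apart in these bulk samples. Fibroblast markers rose, 8 of 8, with sums of 597 to 832 in knockout and 299 to 330 in wild type. Macrophage markers were called higher for 3 of 7 and lower for 1 of 7, Ptprc, of which 2 other probes were called the opposite way. With spike-in scaling 5 of the 7 were higher and 0 lower. Their sum was 110.4, 211.4, 211.4 and 169.1 in Mutant_175, Mutant_182, Mutant_187 and Mutant_188, against 107.8, 114.5 and 103.9 in the wild types. Mutant_175 was thus at the wild type level for this sum, as it was for Ckb, while Gatm and Gamt lay below the wild types there. The sum was mostly Lyz2 (68.7 in Mutant_175, 65.8 to 74.9 in wild type), and the single markers of Mutant_175 differed. Cd68 (3.73 against 2.21 to 2.29), Mrc1 and Csf1r lay above the wild types. Lyz2 and Cd14 lay within them, and Adgre1 (1.58 against 2.16 to 2.49) and Ptprc below. The part of macrophage, fibroblast and smooth muscle cells in the Ckb, Gatm and Gamt values was not tested. The sum of 5 smooth muscle markers was 406 to 505 in knockout and 87.6 to 94.4 in wild type. Acta2 alone read 381 to 465 in knockout and 33.4 to 44.8 in wild type, so the knockout sum was mostly that gene. Of the 5, 1 was called higher (Acta2) and 1 lower (Smtn), and 3 higher and 1 lower with spike-in scaling. Neuron and glia markers, where Ckb is a known isoform, were higher for 2 of 8 measured and lower for 0 (3 and 0 with spike-in scaling). The 2 were Tubb3 and Mbp, and 1 other probe of Mbp was called the opposite way. Their sums were 25.9 to 37.7 in knockout and 33.2 to 35.1 in wild type, mostly from Snap25, which was not called (27.0 to 29.7 in wild type). Fast skeletal muscle markers, a tissue rich in Ckm, were low, with sums of 4.32 to 6.06 in knockout and 18.9 to 21.0 in wild type. Of 8 measured, 1 was called higher and 4 lower, and with spike-in scaling 3 higher and 2 lower. The 1 higher was Actn3, which cleared background in 0 wild types and so passed the filter on dim probes only through the knockouts. Atp2a1 alone read 17.2 ± 0.99 in wild type (SD, n = 3). Endothelial markers had 0 of 6 higher and 2 lower, with sums of 67.5 to 97.4 in knockout and 88.8 to 94.8 in wild type, and with spike-in scaling 0 were lower.

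**Figure D4:**
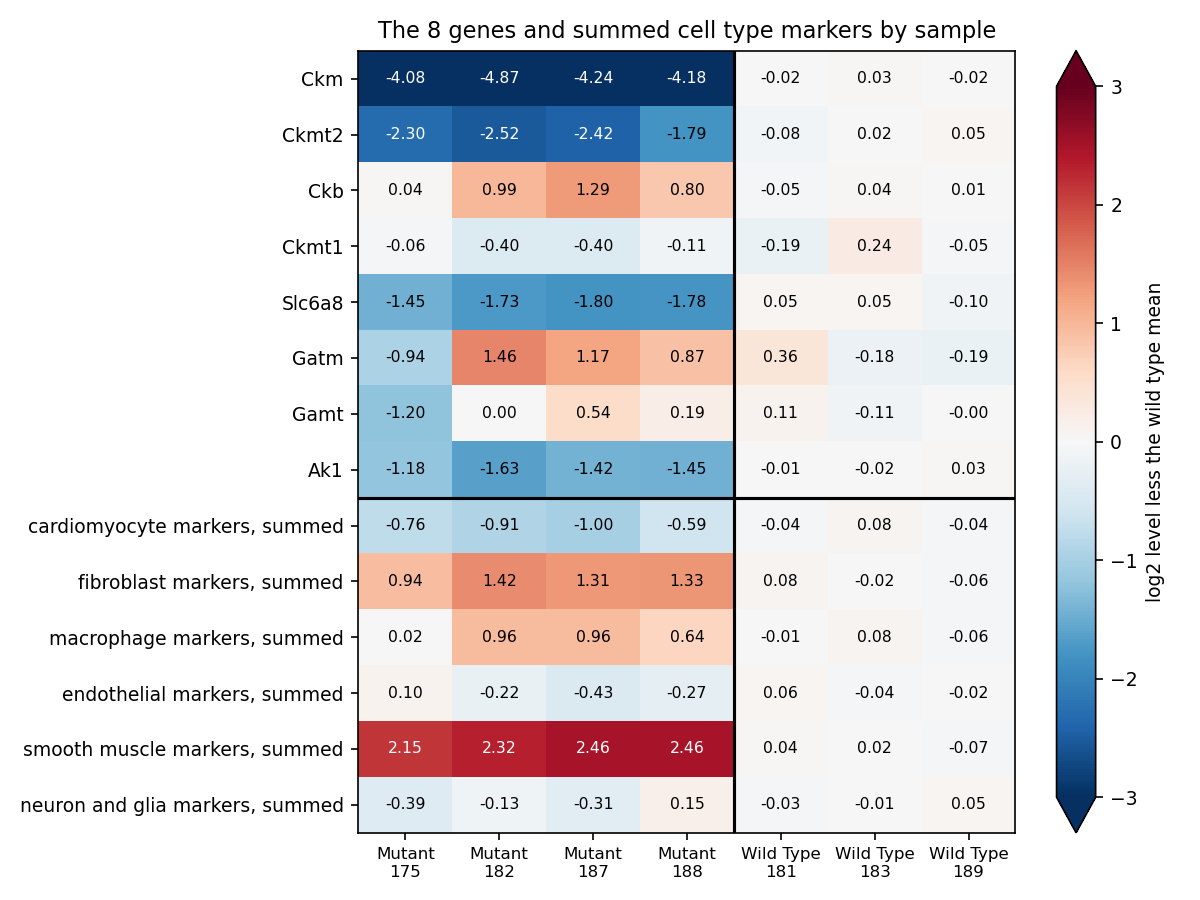
Log2 level of the 8 genes, and of the summed markers of 6 cell types, in each sample less its wild type mean, with knockout samples in the 4 columns at the left and wild type samples in the 3 at the right. The smooth muscle sum is mostly Acta2 in the knockouts. In Mutant_175 Ckb (0.044) and the macrophage sum (0.023) are at the wild type level, while Ckm (-4.08) is far below it, as in the other knockouts. Single macrophage markers of Mutant_175, not drawn, lie above, within and below the wild types.

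The genes whose levels followed those of Ckm and Ckb most closely were taken from 14114 other named genes well above background on every array. Over the 7 arrays the highest Pearson r with Ckm were those of Gzmm (0.9999), Pim3 (0.9995), Cryba4 (0.9990), Chrna9 (0.9988) and P2ry2 (0.9988). Genes picked in this way had to fall with Ckm, and the log2 differences of those 5 were -3.67 to -1.01. Over deviations from the group means, which leave out the genotype difference, r with Ckm was 0.887 to 0.996. The SD of Ckm was 0.028 over the wild type arrays and 0.35 over the knockouts, so these r rest mainly on the 4 knockouts. The highest r with Ckb were those of Tyms-ps (0.9973), Ncaph (0.9969), Pask (0.9967), Sapcd2 (0.9963) and Cdca3 (0.9959). Ncaph is a condensin subunit and Cdca3 a regulator of entry into mitosis. Over the same deviations, r with Ckb was 0.992 to 0.995 for these 5. These are descriptions of 7 arrays that share 1 slide, picked as the highest of many.

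The 83 other genes of the pathway gave 73 with a measured level, of which 28 were called lower and 8 higher, with a median log2 difference of -0.43, beside 25.8% lower and 16.3% higher over all genes. With spike-in scaling 10 were lower and 20 higher, beside 7.44% and 37.2%. The counts by group below stand against the same shares, and no group was tested against them. Among places where creatine kinase docks or where its ATP is used, 4 of 7 fell and 0 rose, with a median of -1.82. Myom2, an M-band protein known to bind muscle creatine kinase, differed by -2.97 and Atp2a2, which pumps calcium back into the sarcoplasmic reticulum, by -2.19. Fhl2, a LIM protein reported to hold metabolic enzymes at titin, differed by -1.82. With spike-in scaling 4 of the 7 were lower and 2 higher, and Myom2, Atp2a2 and Fhl2 were among the lower.

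Carriers and channels that bring ATP and phosphate across the mitochondrial membranes had 4 of 6 measured lower and 0 higher, with a median of -0.58. Slc25a4, the muscle adenine nucleotide translocator that passes ATP to Ckmt2, differed by -0.61 (SE 0.14, limma adjusted p = 0.012). The outer membrane channels Vdac1 and Vdac3 differed by -0.99 and -0.55, and the phosphate carrier Slc25a3 by -0.75. With spike-in scaling 0 of the 6 were lower and 1 was higher, and the value of Vdac3 turned to 0.016. Without Wild Type_183 2 of the 6 were lower. Among the other adenylate and nucleoside phosphate kinases, 5 of 14 measured fell and 2 rose. Nme3 and Nme6 differed by -1.33 and -1.25, while Nme1, a nucleoside diphosphate kinase, rose by 1.09 (SE 0.17, limma adjusted p = 0.0020) and Nme4, its mitochondrial relative, by 0.86. With spike-in scaling 3 were lower and 4 higher.

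In the group that senses and breaks down AMP, 5 of 14 measured fell and 2 rose, beside 25.8% and 16.3% of all genes. Prkab1 and Prkag1, regulatory subunits of the AMP-activated kinase, differed by -1.44 and -0.81, and Stk11, the kinase that activates it, by -1.09. The 2 that rose were Prkab2 and Prkag2, regulatory subunits of the same kinase. They differed by 0.82 and 0.67 (limma adjusted p = 0.0093 and 0.0053), so its regulatory subunits moved both ways. Nt5c1a, a cytosolic nucleotidase that acts on AMP, differed by -1.31 (SE 0.14, limma adjusted p = 0.00045). With spike-in scaling 2 were lower and 5 higher, beside 7.44% and 37.2% of all genes. Stk11 and Prkag1 were no longer called there (limma adjusted p = 0.068 and 0.30). Without Mutant_175 5 were higher. Genes that make, carry or use up arginine or methyl groups, from which creatine is made, or that export creatine, had 5 of 13 measured lower and 3 higher. Asl, which makes arginine, rose by 1.33 (SE 0.13, limma adjusted p = 0.00025) and Gnmt, which uses up methyl groups, differed by -1.21. Arg1, which splits arginine, did not stand well above background in the wild types and was at least 3.80-fold higher in knockout (limma adjusted p = 0.0039). For that bound the wild types were set at the lowest signal that counted as well above background there. Its signal cleared background in 3 of 4 knockouts and 0 wild types, so it passed the filter on dim probes only through the group where it is high and had to differ. With the filter over all arrays, which leaves it out, 2 of this group were higher. Oat, which feeds ornithine into proline and glutamate, differed by -0.70, and by -0.13 with spike-in scaling (limma adjusted p = 0.56), where 1 of the 13 was lower and 4 were higher. Without Wild Type_183 3 of the 13 were lower.

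Transcription factors known at creatine kinase genes had 5 of 19 measured lower and 1 higher, close to the background share for lower calls. Esrra and Esrrg, nuclear receptors of energy metabolism, differed by -0.97 and -0.88, and the thyroid hormone receptor gene Thra by -0.71. Srf, which binds CArG boxes of muscle genes, rose by 1.02 (SE 0.14, limma adjusted p = 0.0014). With spike-in scaling 0 were lower and 4 higher, and without Mutant_175 8 were lower.

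**Figure D5:**
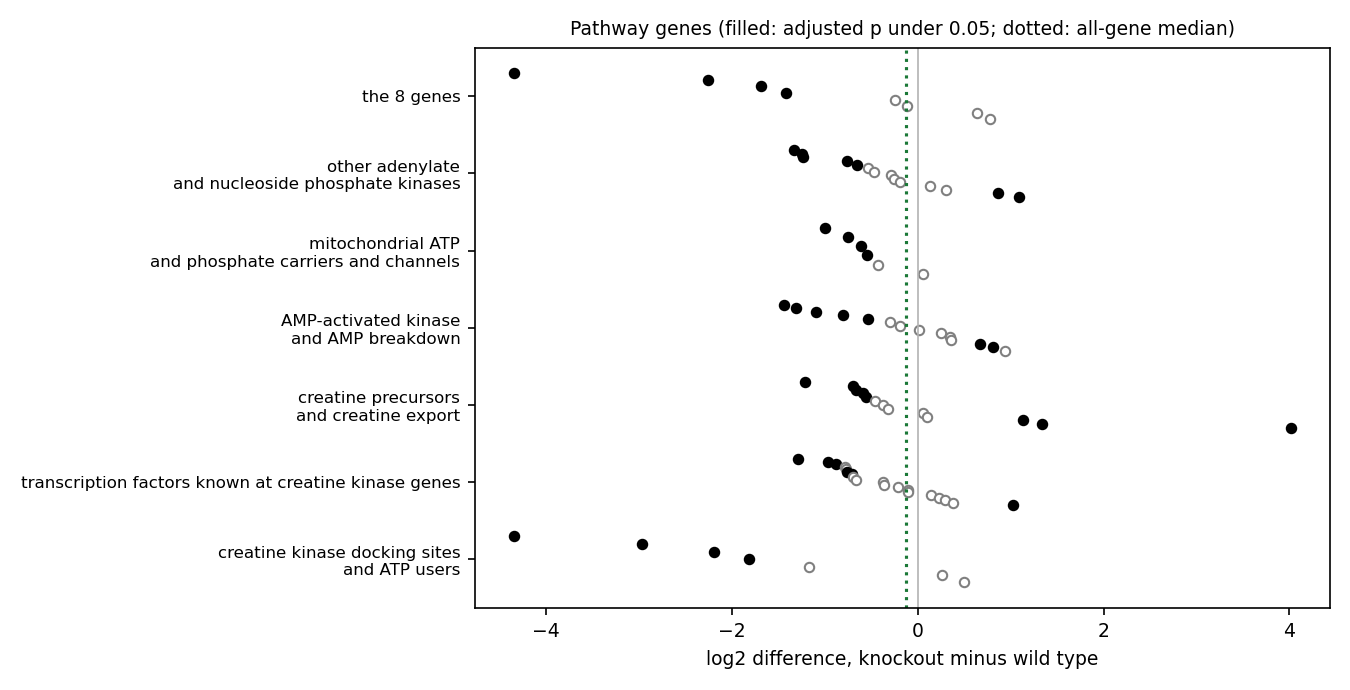
Fitted log2 difference, knockout minus wild type, of each of the 8 genes and of each measured gene of the other pathway groups, 1 point a gene, filled where the adjusted p was under 0.05. The dotted line is the median of all genes at -0.12, the point far right is the fitted value of Arg1 (4.02), which is no bound, and the docking and ATP-use group has 4 filled points left of it and 0 right of it.

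The stretches just before the annotated starts are shown for Ckm and Ckmt2, which fell together, and for Ckb. The downstream Ckb probe read higher in knockout with no overlap of the groups, but it was not called. Of all genes, 51.2% had groups that did not overlap, and on the upstream Ckb probe the groups overlapped. RefSeq sequence of assembly GRCm38.p6 was available for 7 of the 8 genes, in 11 windows. Each run holds the 250 bases before the start, on the gene's strand, and capitals mark exact matches on either strand. The patterns were the E-box CANNTG, the TATA box TATAAA, the M-CAT element CATTCC and the GC box GGGCGG. The others were the MEF2 site CTAWWWWTAR, the CArG box CCWWWWWWGG and the ERR element TNAAGGTCA. Here N is any base, W is A or T and R is A or G.
Ckm, chr7:19410844-19411093, plus strand: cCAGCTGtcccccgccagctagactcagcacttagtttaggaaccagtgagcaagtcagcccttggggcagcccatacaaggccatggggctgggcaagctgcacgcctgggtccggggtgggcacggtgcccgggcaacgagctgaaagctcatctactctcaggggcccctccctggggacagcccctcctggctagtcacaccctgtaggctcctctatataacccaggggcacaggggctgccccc
Ckmt2, chr13:91876886-91877135, minus strand: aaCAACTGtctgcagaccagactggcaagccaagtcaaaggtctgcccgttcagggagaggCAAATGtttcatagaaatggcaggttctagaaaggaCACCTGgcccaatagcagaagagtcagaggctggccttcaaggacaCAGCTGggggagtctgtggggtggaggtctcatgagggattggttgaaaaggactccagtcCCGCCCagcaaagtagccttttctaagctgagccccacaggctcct
Ckb, chr12:111672339-111672588, minus strand: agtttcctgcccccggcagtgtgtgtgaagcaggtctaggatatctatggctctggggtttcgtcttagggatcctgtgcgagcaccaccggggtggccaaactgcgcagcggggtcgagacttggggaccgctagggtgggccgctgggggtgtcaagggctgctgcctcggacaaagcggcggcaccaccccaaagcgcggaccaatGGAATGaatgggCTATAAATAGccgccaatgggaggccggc

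The Ckm window held 1 E-box, 249 bases before the start, and the Ckmt2 window 4, where 66.2% of 32851 mouse windows of the same length held at least 1. The Ckb window held 0 E-boxes. It held a TATA box 28 bases before the start, found in 12.4% of windows, inside a MEF2 match found in 1.69%, so that these overlap. It also held an M-CAT match 41 bases before the start, found in 12.6% of windows. Exact CArG boxes, in 1.47% of windows, and the ERR element, in 1.14%, were matched in none of the 11 windows. Near matches, such as ccatacaagg to the CArG box and tatataa to the TATA box in the Ckm window, were not counted. The counts are of matches of letters in a short window, and they say nothing of binding.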

How the data were processed

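Messenger RNA was measured on 7 one-colour Agilent arrays, 4 knockout and 3 wild type, grouped by the samples' titles. Per the file headers, the scans were read by Agilent Feature Extraction 10.7.3.1. Its deposited processed signal, a linear intensity after background subtraction, was used with flags and probe positions (mm9). A deposited value table of intensity served as an alternative. In it 99.4% of cells differed from the scanner's value by at most 0.01 in log2 units, so it is linear and not scaled between arrays. Its column medians were 65.0, 82.6, 80.3 and 60.8 in Mutant_175, Mutant_182, Mutant_187 and Mutant_188 and 47.2, 45.6 and 50.4 in the wild types Wild Type_181, Wild Type_183 and Wild Type_189.

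Outlier spots (82 to 146 per array) were left out and spots of a probe averaged. Each array's log2 signal was centred on its 75th percentile over probes that are not controls. A probe was retained if 3 or more arrays showed it well above background (34481 probes), and the retained probe with the highest mean stood for its gene. Scaling removes any difference in total messenger RNA. Names were updated through the probe's accession for 1535 of 32994 matched probes (GRCm38.p6, 49997 genes, for names alone). Tests used limma 3.58.1 in R 4.3.3, without covariates, with Benjamini-Hochberg adjustment over 22971 genes or over 34481 probes. Single differences were compared by exact permutation over 35 splits. Figures used matplotlib 3.10.9. Simulated data with known changes were used to check the fit.

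The 8 genes and the lists were chosen with earlier results of these data known. Named genes were the 8 with all their probes, up to 4 called genes of the smallest p per pathway list, Smarca4 and Smarca2, and the 5 genes with the highest Pearson r with each of Ckm and Ckb. Single marker genes (Tnni3, Actc1, Cd68, Csf1r, Mrc1, Lyz2, Cd14, Adgre1, Ptprc, Acta2, Smtn, Tubb3, Mbp, Snap25, Actn3 and Atp2a1) fall outside that rule, as do Prkab2 and Prkag2. They were chosen after their values were seen. A gene that the rule names in the docking and ATP-use list is not reported here by name. Alternatives were 5 other scalings, quantile-normalized normexp values (offset 50), the deposited table, other filters on dim probes, the mean over a gene's probes, other moderation, and leaving out arrays. With 1 slide and 1 scan there was no such batch to fit.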

Additional observations from a re-analysis of the deposited data

How the results depend on the processing

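No paired analysis was possible because knockout and wild type samples share no replicate numbers. Of the 8 genes 4 were called lower under every alternative run, and of their probes 5, except 4 with spike-in scaling and no scaling, which lost the upstream Slc6a8 probe. Of the 8 genes 0 were called higher under the chosen settings, and 1 (Ckb) with quantile normalization, a 75th percentile taken over bright probes alone, spike-in scaling, no scaling, normexp with quantile normalization, the filter over all arrays and the trended robust prior. There were 2 (Ckb and Gatm) with array weights and without Mutant_175 and Mutant_187 together, and 0 to 2 when single arrays were left out. Probes called higher numbered 1 under the same settings except spike-in scaling and no scaling (2), array weights and without Mutant_175 and Mutant_187 together (3), and 0 to 3 without single arrays. Over all genes spike-in scaling called 8538 higher and 1710 lower, and no scaling 8937 and 1796. Other pathway genes called higher numbered 13 with the percentile of bright probes, 20 with spike-in scaling and 21 with no scaling, and those called lower 10 and 9 with the last 2. The 6 differences between genes kept their direction, and Ckm less Ckmt2 was -2.37 without Mutant_175 and Mutant_187. The fitted difference of Ckmt1 turned to 0.32 with spike-in scaling and no scaling and to 0.26 with the mean over its probes. That of Gamt turned to 0.45 with spike-in scaling and no scaling, to 0.052 with array weights and to 0.10 without Mutant_175 and Mutant_187, and ran from -0.34 to 0.24 without single arrays. That of the upstream Ckb probe turned to 0.089, 0.10, 0.55, 0.55, 0.052, 0.075 and 0.12 with quantile normalization, the percentile of bright probes, spike-in scaling, no scaling, normexp, array weights and without Mutant_175 and Mutant_187, and ran from -0.13 to 0.19 without single arrays. The cause was not tested, except that spike-in scaling and no scaling each add 1 shift to every gene. Gatm, the dimmer Ckmt1 probe and Arg1 are limited by signals near background.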
